A study of Homo sapiens with 6 samples.

Results

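The Rab GTPases were followed in HCT116 cells, an established line of human colorectal carcinoma cells, after depletion of PRSS22, a secreted trypsin-like serine protease. Every gene was taken whose symbol is RAB followed by digits and at most 1 letter, with an optional final digit, which gave 63 of the 17269 genes in the deposited table. Of these, 54 had enough counts to be tested in both groups. The choice used gene names and no measured value, but it was made with earlier results of these data known. Genes that carry RAB in their name but encode other proteins, such as RAB11FIP1 or RABGEF1, were treated as partners.

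The study set 3 libraries of PRSS22 knockdown cells (shPRSS22) against 3 libraries of control cells (shCtrl). The labels give the genotype of the control cells as WT and their titles as shCtrl, so whether a control hairpin was present is not settled by them. Both groups were kept in RPMI1640 medium with fetal bovine serum, and RNA was taken with Trizol and selected on oligo(dT) beads. The labels give no hairpin sequence, no number of hairpins, no time after knockdown and no statement that replicates were separate cultures, so p-values measure only the spread between these libraries, which may be technical.

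Library totals lay between 15332449 and 15466647 estimated counts in shPRSS22 and between 14920523 and 15164328 in shCtrl. PRSS22 stood at 3.09, 3.16 and 2.61 CPM (counts per 1000000, scaled between libraries) in shPRSS22, against 10.1, 9.38 and 10.1 CPM in shCtrl, a log2 fold change of -1.74 (SE 0.135, adjusted p = 4.78e-12 by the edgeR quasi-likelihood test). The epithelial markers EPCAM, CDH1, KRT8, KRT18 and KRT19 were each at 288.2 CPM or more in every library. CDX2 was at 9.13 to 10.9 CPM over the 6 libraries, and VIL1, the villin of brush borders, was at most 1.49 CPM. Of 8 fibroblast, endothelial and immune markers 6 were under 1 CPM in every library. The exceptions were CD68, at 14.2 to 18.9 CPM over the 6 libraries, and VWF, at 0.595 to 1.57 CPM. The 9 markers of differentiated enterocytes and goblet cells summed to 45.9 to 49.9 CPM in shPRSS22 and to 36.4 to 39.0 CPM in shCtrl, most of it from CA2, and 6 of them were under 1 CPM in every library. FABP1 and SLC26A3 had 13 and 16 counts in shPRSS22 replicate 1 and 0 in the other libraries. The part of these markers in the results was not tested. Without shPRSS22 replicate 1, 10 Rab genes were higher (18.5%, against 17.97% of all tested genes) and 1 was lower (1.85%, against 17.2%). In bulk RNA, fewer cells with a transcript and less transcript per cell cannot be told apart.

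Rab proteins are small GTPases that mark membranes. In the GTP-bound state each recruits effectors such as tethers, motors and lipid kinases, and so sets which vesicle docks where. Guanine nucleotide exchange factors (GEFs) switch them on, GTPase-activating proteins (GAPs) switch them off, and GDI extracts the lipid-anchored, inactive form from membranes. In epithelial cells they steer secretion, uptake and recycling of surface proteins and the supply of enzymes to lysosomes.

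The Rab repertoire of HCT116 cells was broad and shifted little with PRSS22 depletion. At an adjusted p under 0.05, 13 of the 54 tested genes were higher in shPRSS22 (24.1%) and 2 were lower (3.70%), while 39 did not pass. Among all 13104 tested genes, 19.9% were higher and 19.3% lower, so the share of Rab genes that rose was near that of the transcriptome and the share that fell was below it, a difference that was not tested. The 15 changes were small, between 1.06-fold and 1.25-fold. The median log2 fold change of the 54 genes was 0.037, against -0.0056 for all tested genes, and the median of its absolute size was 0.083, against 0.14. None of the 54 changed by more than 0.5 on the log2 scale, against 6.72% of all tested genes. The Rab genes were also better counted, with a median level of 42.8 CPM against 30.6 CPM for all tested genes.

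Seen by library, all 3 shPRSS22 libraries lay above all 3 shCtrl libraries for 13 Rab genes, or 24.1% of those tested, where 24.2% of all tested genes did so. They lay below for 4 Rab genes, RAB3D, RAB3A, RAB13 and RAB14, where 24.3% of all tested genes did so. Of the 39 genes that did not pass, 27 had a 95% interval of the fold change wholly within 1.2-fold in either direction, among them RAB7A, RAB11A, RAB25, RAB10 and RAB6A. For the other 12 the interval reached past 1.2-fold.

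**Figure D1:**
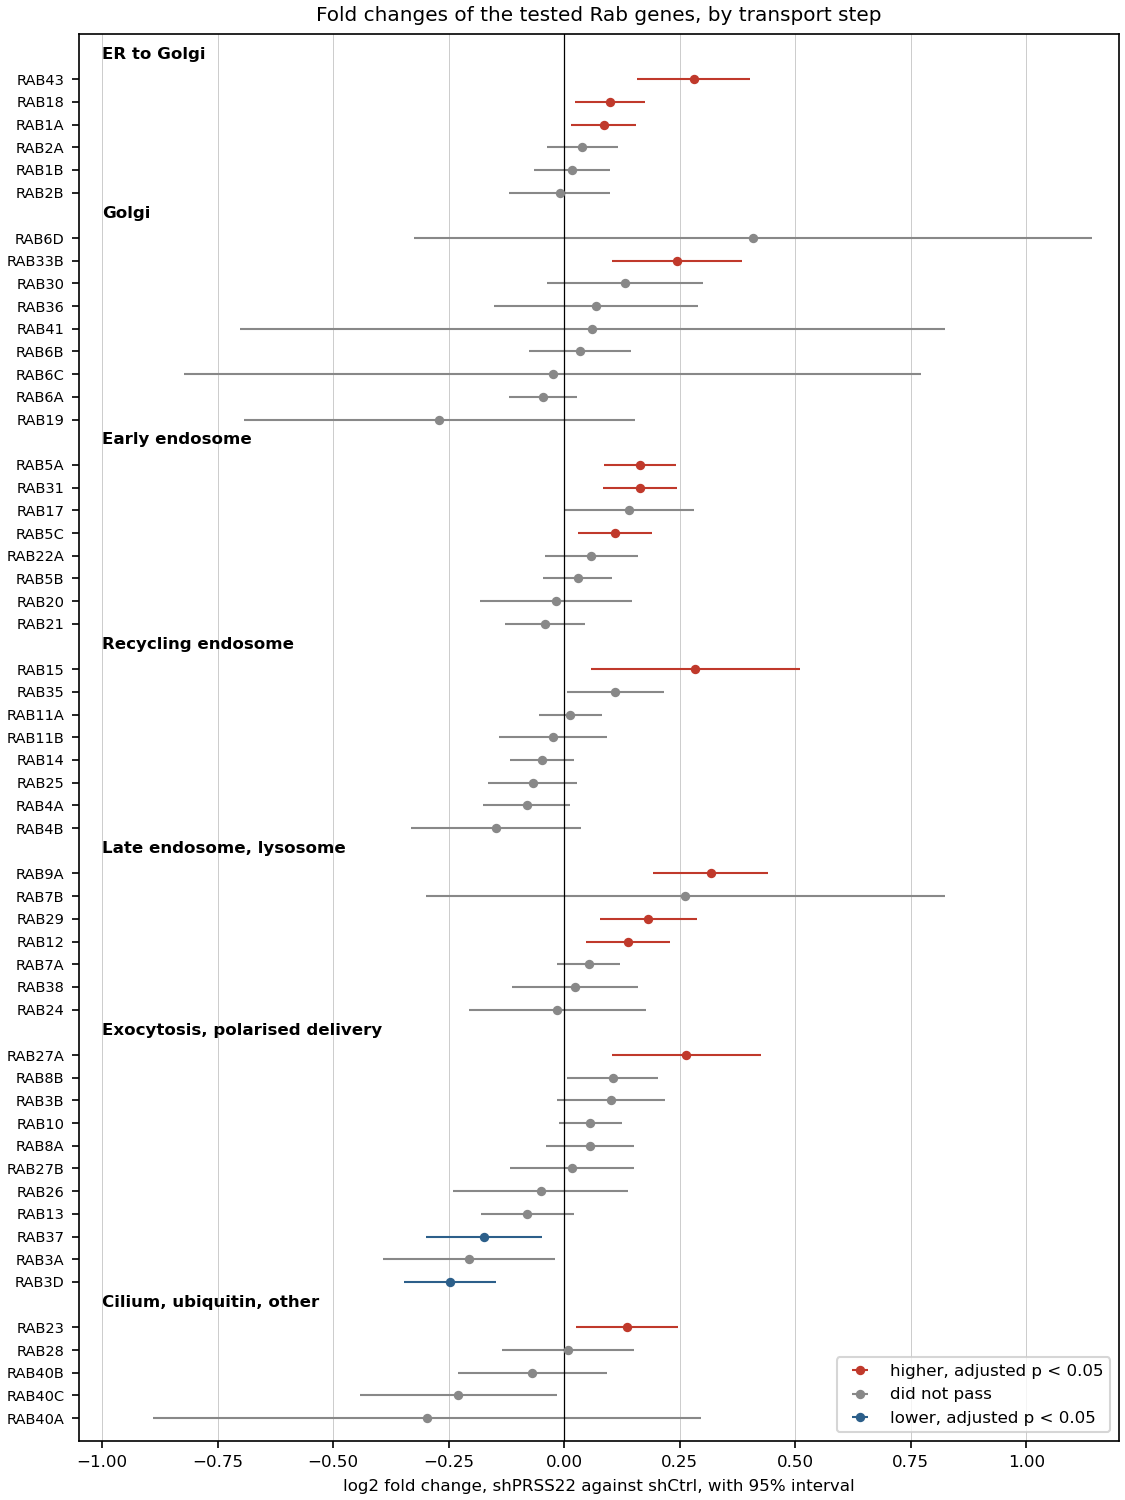
Log2 fold change of each of the 54 tested Rab genes, shPRSS22 against shCtrl, with its 95% interval (3 libraries each), grouped by the transport step that the protein serves. The 13 genes that passed upward spread over every step, and the 2 that passed downward, RAB3D and RAB37, both stand among exocytosis genes. That is 18.2% of the tested genes of that step, while 19.3% of all tested genes fell.

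In level per transcript length, RAB7A had the highest mean, at 209 ± 6.24 TPM (transcripts per 1000000, as deposited) in shPRSS22 and 200.2 ± 6.16 TPM in shCtrl (SD, n = 3 each). RAB1A stood at 201.4 ± 8.41 TPM in shPRSS22 and 188.6 ± 7.58 TPM in shCtrl. Its range overlapped that of RAB7A in both groups, but within every library RAB1A was below RAB7A. RAB5C came next at 160.9 ± 4.79 TPM in shPRSS22 and 148.2 ± 3.33 TPM in shCtrl. These 3 genes serve the basic routes of every cell: fusion with lysosomes, export from the endoplasmic reticulum and fusion of early endosomes. The next genes, RAB6A with a mean of 143.5 TPM over the 6 libraries and RAB10 with 141.7 TPM, did not differ from each other beyond their spread.

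RAB25, a relative of RAB11 found mainly in epithelia, was sixth at 125.5 ± 1.98 TPM in shPRSS22 and 131.0 ± 6.61 TPM in shCtrl. It made up 52.2% of the summed TPM of RAB11A, RAB11B and RAB25 in shPRSS22 and 53.3% in shCtrl. RAB1B, with a mean of 94.9 TPM, and RAB13, with 94.8 TPM, completed the 8 highest. The 63 genes together summed to 2397 ± 47.9 TPM in shPRSS22 and 2323 ± 30.0 TPM in shCtrl. Early endosome genes gave 442.8 ± 8.34 of these TPM in shPRSS22 and 409.3 ± 8.98 TPM in shCtrl, and late endosome and lysosome genes 414.6 ± 9.65 TPM in shPRSS22 and 388.2 ± 9.78 TPM in shCtrl. For both steps the groups did not overlap. Genes of traffic between the endoplasmic reticulum and the Golgi, the step with the most TPM, gave 459.9 ± 12.8 TPM in shPRSS22 and 436.9 ± 8.41 TPM in shCtrl, with overlap. Recycling endosome genes were the other way, without overlap, at 426.3 ± 6.82 TPM in shPRSS22 and 434.5 ± 2.90 TPM in shCtrl. Exocytosis genes gave 407.4 ± 7.32 TPM in shPRSS22 and 408.7 ± 2.75 TPM in shCtrl. None of these sums was tested.

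**Figure D2:**
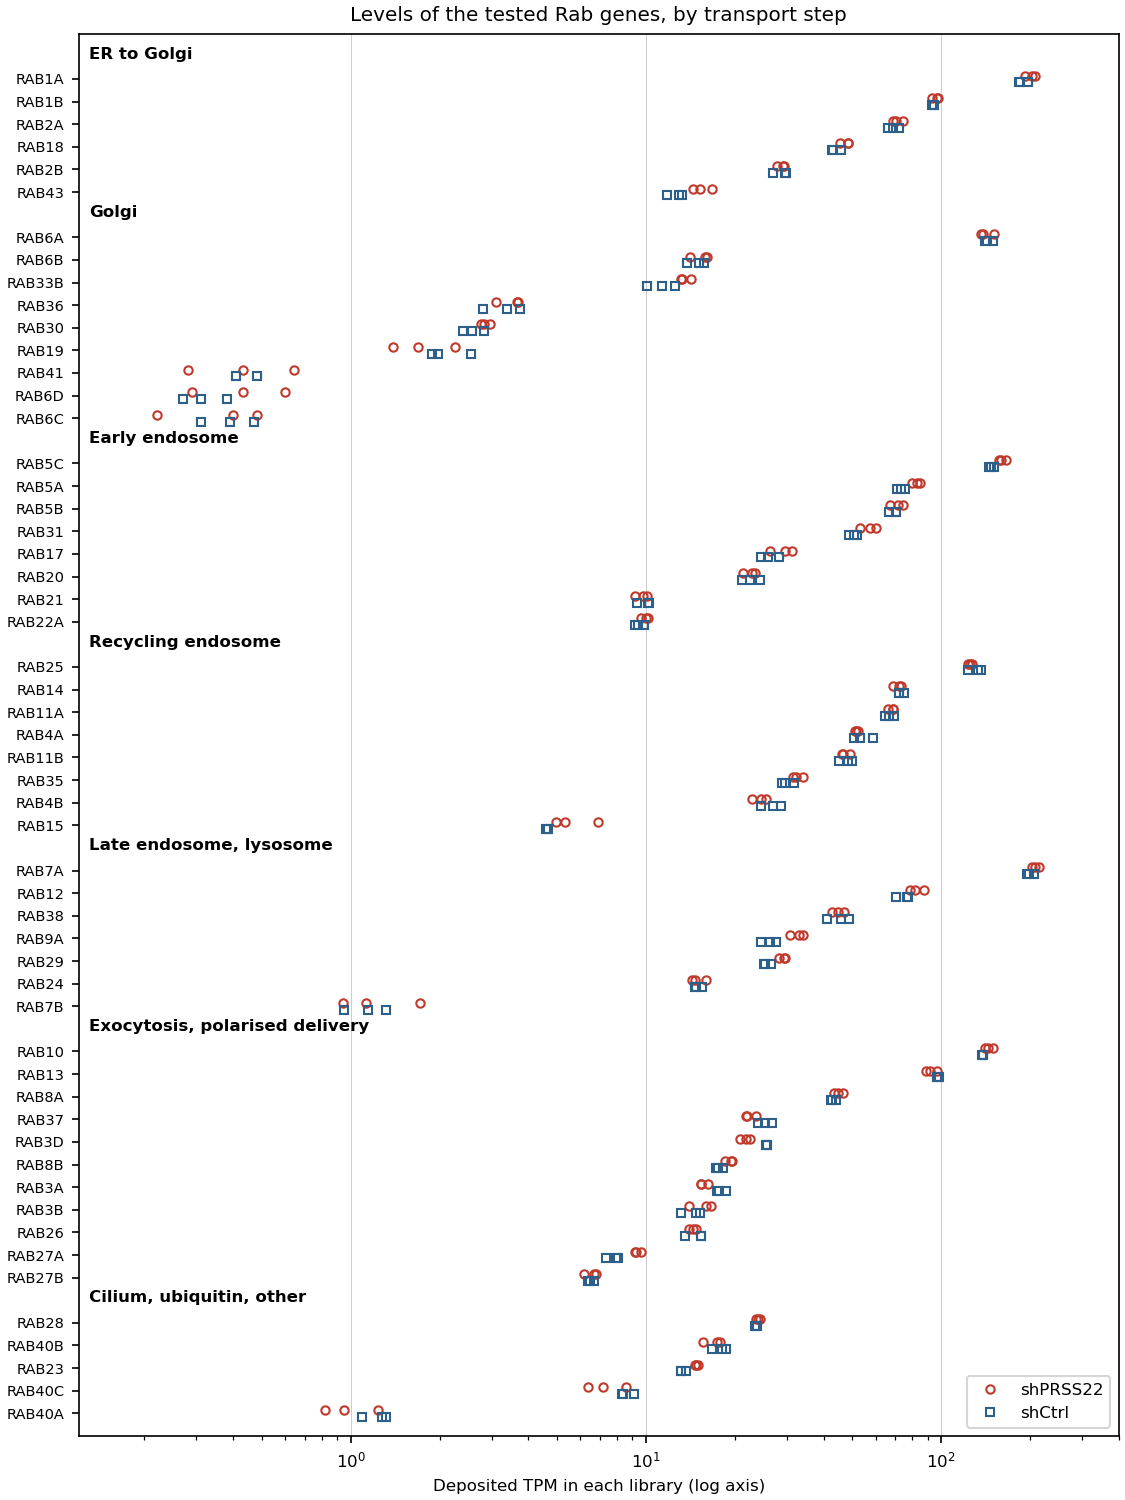
Deposited TPM of the 54 tested Rab genes in each of the 6 libraries, on a log axis, with shPRSS22 as red circles above shCtrl as blue squares. Levels span from under 1 TPM for RAB6C, RAB6D and RAB41 to means of 195 TPM for RAB1A and 204.6 TPM for RAB7A, and for most genes the groups lie on top of each other.

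The 9 Rab genes that were not tested held at most 7 counts in any library and at most 21 counts over all 6. They were RAB3C, RAB9B, RAB32, RAB33A, RAB34, RAB39A, RAB39B, RAB42 and RAB44. RAB32 had 1 count in shPRSS22 and 0 in shCtrl, so in these cells its close relative RAB38, at a mean of 45.0 TPM, gave nearly all the reads of the pair. RAB9A likewise gave 99.6% of the summed TPM of RAB9A and RAB9B in shPRSS22 and 99.7% in shCtrl, and RAB7A gave 99.4% of that of RAB7A and RAB7B in both groups.

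Of the late endosome and lysosome genes, 7 were tested, 3 were higher (42.9%) and 0 lower, against 19.9% and 19.3% of all tested genes. The shares of single steps rest on few genes and were not tested. RAB9A, which returns mannose phosphate receptors from late endosomes to the Golgi, had the largest rise among all Rab genes that passed. It stood at 34.6, 33.4 and 35.7 CPM in shPRSS22 and at 27.9, 26.2 and 29.1 CPM in shCtrl. Every knockdown library was above every control library, and the log2 fold change was 0.32 (SE 0.0613, adjusted p = 1.08e-04). The gene lies on chromosome X from 13689125 to 13710506 on the plus strand of GRCh38, with RAB29 on chromosome 1 (205767986 to 205775460, minus strand).

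RAB29, a Rab of the Golgi and stressed lysosomes that acts with the kinase LRRK2, was at 50.9, 54.4 and 50.03 CPM in shPRSS22, against 47.0, 45.2 and 44.7 CPM in shCtrl (log2 fold change 0.18, SE 0.0515, adjusted p = 0.00525). RAB12, which routes transferrin receptor to degradation, averaged 94.9 ± 5.46 CPM in shPRSS22 and 86.2 ± 3.48 CPM in shCtrl (log2 fold change 0.14, adjusted p = 0.0135), a call lost on leaving out shCtrl replicate 2 or shPRSS22 replicate 3, with an adjusted p of up to 0.11, and with DESeq2 (adjusted p = 0.0616). The groups did not overlap for either gene. RAB7A, the central Rab of late endosomes, had a log2 fold change of 0.053 with an interval from -0.015 to 0.12, and did not pass.

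Of early endosome and uptake genes 3 of 8 rose (37.5%) and 0 fell, against 19.9% and 19.3% of all tested genes. RAB5A, a master of early endosome fusion, was at 115.1, 113.1 and 113.4 CPM in shPRSS22, against 98.6, 102.0 and 104.2 CPM in shCtrl (log2 fold change 0.16, SE 0.0383, adjusted p = 9.04e-04). RAB31, which moves cargo between the Golgi and endosomes, was at 128.4, 123.6 and 134.7 CPM in shPRSS22, against 116.4, 111.5 and 117.3 CPM in shCtrl (log2 fold change 0.16, adjusted p = 0.00116). Both genes were higher in each knockdown library than in any control library.

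RAB5C rose less, with a log2 fold change of 0.11 (adjusted p = 0.026). That call did not survive leaving out replicate 1 or 2 of shCtrl or replicate 2 of shPRSS22, with adjusted p-values of up to 0.177, or the use of DESeq2 (adjusted p = 0.088), and 28.8% of its exonic bases are shared with an unnamed gene on the same strand. The third RAB5 paralog, RAB5B, averaged 139.2 ± 4.16 CPM in shPRSS22 and 136.5 ± 3.68 CPM in shCtrl, a log2 fold change of 0.029 that did not pass. Within the family RAB5A held 26.3 ± 0.668% of the summed TPM in shPRSS22 and 25.2 ± 0.186% in shCtrl. Since the counts of RAB5B carried decimals in all 6 libraries, its values and these shares are uncertain. RAB21 (log2 fold change -0.041), an endosomal Rab of integrin traffic, and RAB22A (0.059) did not pass either.

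The promoters of RAB5A, RAB29 and RAB31 share a short sequence, shown because these are 3 of the 6 Rab genes whose calls held in every setting tried. RefSeq promoter windows, from 250 bases before to 50 bases after a start site in GRCh38.p14, matched 50 of the 63 genes. Among the genes without a window were RAB12, RAB15, RAB1A, RAB33B and RAB37, which passed the threshold. The palindrome CACGTG, the E-box read by basic helix-loop-helix factors such as MYC, USF and TFEB, stood in at least 1 window of 6 of the 50 genes (12%), against 8.77% of all genes with a window. RAB9A, RAB43 and RAB3D, whose calls also held in every setting, had windows without this E-box. Its 6 holders are given here with the E-box in capitals and 12 bases on either side, in the direction of the gene.
RAB5A: cactcgcagggtCACGTGacatcctgcctc
RAB29: caggcaaccctgCACGTGacgcttgcggag
RAB31: ccggccggcggcCACGTGacccaccgcggc
RAB21: ggcaccggcgctCACGTGacccgaggtgtg
RAB24: cggcgcccgcgcCACGTGaccttgcggccc
RAB4A: gcccagcccgcgCACGTGcttccggcgcgc

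The first 3 of these genes rose and the other 3 did not pass, while 17.9% of all tested genes with an E-box in a window rose and 22.9% fell. The printed stretches lie in GRCh38.p14 at chr3:19946964-19946993 (RAB5A, plus strand), chr1:205775446-205775475 (RAB29, minus strand), chr18:9708229-9708258 (RAB31, plus strand), chr12:71754831-71754860 (RAB21, plus strand), chr5:177303732-177303761 (RAB24, minus strand) and chr1:229270997-229271026 (RAB4A, plus strand). Counted from the RefSeq start of each window, the E-box begins 121 bases before it in RAB5A, 60 bases before it in RAB31 and 19 bases after it in RAB29. The gene starts of the GENCODE annotation, used for the other coordinates, differ from these starts. The core of the antioxidant response element, TGACNNNGC, searched on both strands, was in windows of 11 of the 50 Rab genes (22.0%), against 16.1% of all genes. Of the 10 tested holders 3 rose, RAB5A, RAB5C and RAB43, and 0 fell, while of all tested holders 22.5% rose and 18.8% fell. The AP-1 site TGAGTCA, also searched on both strands, was in windows of 5 Rab genes (10%), against 6.05% of all genes. None of its 4 tested Rab holders passed in the edgeR test, while of all tested holders 26.3% rose and 15.8% fell. A match is a description of these windows and does not show that a factor bound there.

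In traffic between the endoplasmic reticulum and the Golgi, a step that here includes the early Golgi, 3 of 6 genes were higher (50%) and 0 lower. That share depends on placing RAB43 and RAB18 in this step. Of all tested genes 19.9% were higher and 19.3% lower. RAB43, a Rab of the Golgi, was at 38.9, 38.4 and 43.1 CPM in shPRSS22, against 31.05, 33.9 and 34.2 CPM in shCtrl (log2 fold change 0.28, SE 0.0602, adjusted p = 3.83e-04). Its exons are shared for 79.3% of their length with ISY1-RAB43, a readthrough transcript from the gene next to it, and its counts carried decimals in all 6 libraries, so the separate values of the 2 genes are uncertain. ISY1-RAB43 had a log2 fold change of 0.23 (adjusted p = 0.00153) and ISY1 itself one of -0.0082, which did not pass. With the counts of RAB43 and ISY1-RAB43 summed, the level was 83.4 ± 0.409 CPM in shPRSS22 and 69.9 ± 1.38 CPM in shCtrl, a log2 fold change of 0.26 (SE 0.042, adjusted p = 1.16e-05).

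RAB18, a Rab of the endoplasmic reticulum and lipid droplets, averaged 135.2 ± 2.16 CPM in shPRSS22 and 126.2 ± 4.22 CPM in shCtrl (log2 fold change 0.10, adjusted p = 0.0321). RAB1A, required for export from the endoplasmic reticulum, averaged 268.4 ± 6.29 CPM in shPRSS22 and 253.0 ± 8.82 CPM in shCtrl (log2 fold change 0.085, adjusted p = 0.0469). The RAB1A groups overlapped, since 262.6 CPM in shPRSS22 replicate 2 lay below 263 CPM in shCtrl replicate 3. Leaving out replicate 1 or 2 of shCtrl, or replicate 1 or 3 of shPRSS22, ended both calls, with adjusted p-values of up to 0.134 for RAB18 and 0.203 for RAB1A. With DESeq2 neither was called (adjusted p = 0.103 for RAB18 and 0.0905 for RAB1A). RAB1A was also not called under upper quartile scaling (adjusted p = 0.0616) or unscaled library totals (0.0588), and 22.9% of its exonic bases overlap CEP68 on the opposite strand. RAB1B (0.017), RAB2A (0.039) and RAB2B (-0.01) did not pass.

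Among Golgi genes 1 of 9 tested rose (11.1%) and 0 fell, against 19.9% and 19.3% of all tested genes. RAB33B, a Golgi Rab that also binds the autophagy protein ATG16L1, was at 30.0, 31.1 and 32.6 CPM in shPRSS22, against 23.3, 26.6 and 29.1 CPM in shCtrl (log2 fold change 0.24, SE 0.0694, adjusted p = 0.00553). The control libraries spread more widely than the knockdown libraries, and without shCtrl replicate 1 the call was lost (adjusted p = 0.0832). An antisense transcript overlaps 13.8% of its exonic bases. RAB6A, the main Rab of transport back through the Golgi, gave 89.8% of the summed TPM of the RAB6 genes in shPRSS22 and 90.3% in shCtrl, with a log2 fold change of -0.046 that did not pass. RAB6C and RAB6D, which resemble RAB6A closely, were each under 1 TPM and carried decimals in 5 of 6 libraries, so their values are uncertain. RAB6D had the highest fold change of all tested Rab genes, 0.41, with an interval from -0.33 to 1.14.

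Recycling endosome genes rose in 1 of 8 (12.5%) and fell in 0, against 19.9% and 19.3% of all tested genes. RAB15, which slows traffic through early and recycling endosomes, was at 10.1, 9.86 and 13.1 CPM in shPRSS22, against 8.95, 9.11 and 9.05 CPM in shCtrl (log2 fold change 0.28, SE 0.111, adjusted p = 0.0407). It rested mainly on shPRSS22 replicate 3: without that library its adjusted p was 0.342, and it was also lost without any of the 3 shCtrl libraries and with DESeq2 (adjusted p = 0.173). RAB11A (log2 fold change 0.013), RAB11B (-0.025), RAB14 (-0.048), RAB25 (-0.068), RAB4A (-0.081), RAB4B (-0.15) and RAB35 (0.11) did not pass. The interval for RAB11A, the general recycling Rab, ran from -0.055 to 0.082, and that for RAB25 from -0.16 to 0.028. Counts of RAB11A carried decimals in all 6 libraries, an uncertainty that its interval does not include.

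Exocytosis and polarised delivery was the step that held both genes that fell. Of its 11 tested members 2 were lower (18.2%) and 1 higher (9.09%), against 19.3% and 19.9% of all tested genes. RAB3D, a Rab of secretory granules in exocrine and other epithelial cells, was at 50.5, 56.8 and 53.0 CPM in shPRSS22, against 63.6, 63.4 and 63.3 CPM in shCtrl. Every knockdown library was below every control library, and the log2 fold change was -0.25 (SE 0.0491, adjusted p = 1.46e-04). RAB3D is on chromosome 19 (11322046 to 11346270, minus strand, GRCh38), and 20.5% of its exonic bases overlap an unnamed transcript on the opposite strand. RAB37, another granule Rab, was at 30.95, 34.6 and 31.02 CPM in shPRSS22, against 38.4, 36.4 and 34.2 CPM in shCtrl (log2 fold change -0.17, SE 0.0617, adjusted p = 0.0242). Its groups overlapped, and leaving out replicate 1 or 2 of shCtrl, or replicate 1 or 3 of shPRSS22, ended its call, with an adjusted p of up to 0.147. It was not called with DESeq2 either (adjusted p = 0.125).

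The relatives of RAB3D did not all follow it. RAB3A, the Rab of synaptic and other regulated vesicles, was at 11.2, 12.3 and 11.2 CPM in shPRSS22, against 13.9, 13.1 and 13.1 CPM in shCtrl, a log2 fold change of -0.21 that did not pass (adjusted p = 0.0734). RAB3B had a log2 fold change of 0.10 (adjusted p = 0.163). Of the summed TPM of the RAB3 genes, RAB3B held 29.3 ± 2.55% in shPRSS22 and 24.8 ± 1.17% in shCtrl, and RAB3D 41.1 ± 1.65% in shPRSS22 and 44.2 ± 1.21% in shCtrl. These shares did not overlap between groups and were not tested. Since the counts of RAB3B carried decimals in all 6 libraries, its values and these shares are uncertain. RAB8A (log2 fold change 0.056), RAB8B (0.10), RAB10 (0.057) and RAB13 (-0.08), which deliver vesicles to the cell surface and junctions, and RAB26 (-0.051) did not pass.

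RAB27A, which docks secretory lysosomes, melanosomes and exosome-bearing endosomes at the plasma membrane, was at 17.8, 18.9 and 18.7 CPM in shPRSS22, against 16.0, 14.5 and 15.7 CPM in shCtrl (log2 fold change 0.26, SE 0.079, adjusted p = 0.00804). The groups did not overlap, and without shCtrl replicate 2 the call was lost (adjusted p = 0.0525), as it was with DESeq2 (adjusted p = 0.0705). Its paralog RAB27B averaged 24.1 ± 0.242 CPM in shPRSS22 and 23.9 ± 0.577 CPM in shCtrl, a log2 fold change of 0.016 with an interval from -0.12 to 0.15. Per transcript length RAB27A held 58.9 ± 1.08% of the pair's TPM in shPRSS22 and 54.3 ± 1.80% in shCtrl, higher in every knockdown library.

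**Figure D3:**
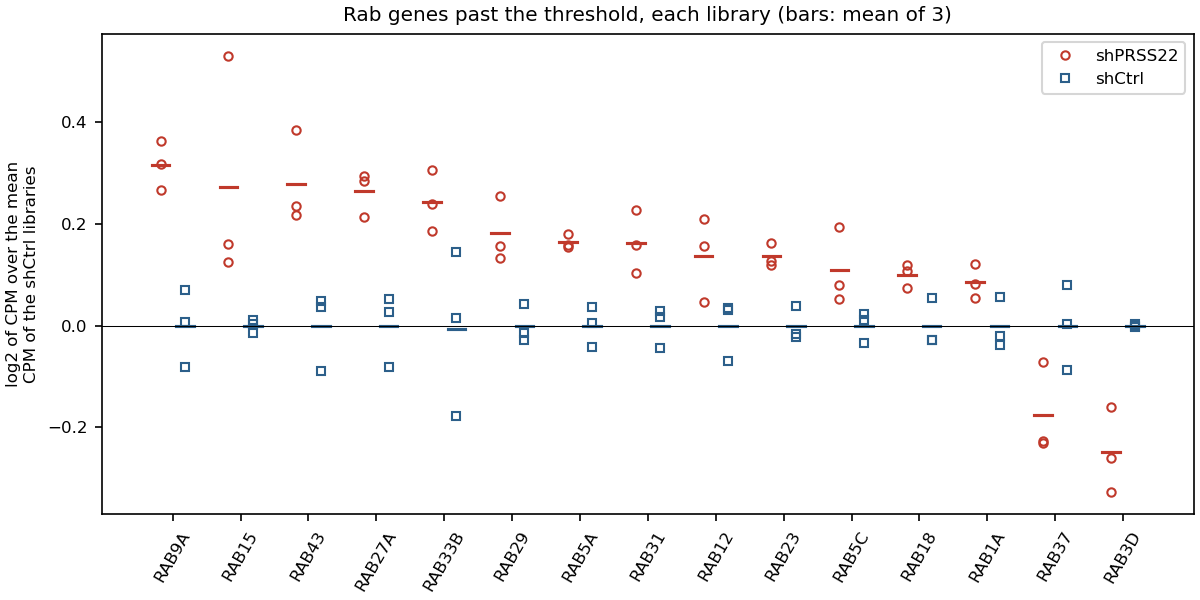
CPM of the 15 Rab genes past the threshold in each library, as log2 of the ratio to the mean of the 3 shCtrl libraries, with shPRSS22 (red circles) left of shCtrl (blue squares) and bars at group means. For 13 of the 15 the groups do not overlap, and shPRSS22 replicate 3 of RAB15 stands well above the other libraries.

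The last group holds Rabs of the cilium, the RAB40 ubiquitin ligase adaptors and less studied members. Of its 5 tested genes 1 rose (20%) and 0 fell, against 19.9% and 19.3% of all tested genes. RAB23, known in the mouse as an antagonist of Hedgehog signalling, averaged 40.7 ± 0.635 CPM in shPRSS22 and 37.1 ± 0.857 CPM in shCtrl (log2 fold change 0.14, adjusted p = 0.0455). Over its exons 57.7% of bases overlap BAG2, a chaperone regulator on the opposite strand, and no strand marking is described for these libraries. BAG2 had a log2 fold change of 0.28 (adjusted p = 1.26e-05), and both genes carried decimals in all 6 libraries, so the rise of RAB23 and that of BAG2 cannot be told apart. The call of RAB23 was lost in 9 of the 13 other settings, among them leaving out any library but shCtrl replicate 3, with an adjusted p of up to 0.187. RAB40C, at 9.20, 12.6 and 10.3 CPM in shPRSS22 and 12.2, 12.2 and 13.2 CPM in shCtrl, had a log2 fold change of -0.23 and did not pass (adjusted p = 0.0815).

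Calls of 6 Rab genes held under each of the 13 other settings tried: RAB9A, RAB43, RAB5A, RAB31 and RAB29 higher and RAB3D lower. The authors' deposited table lists 4 Rab genes higher at a q-value under 0.05, RAB9A, RAB43, RAB5A and RAB31, and 1 lower, RAB3D, where 9.69% and 8.89% of its genes with a q-value were listed higher and lower. The count of Rab genes higher fell to 6 with DESeq2 (11.8% of those tested, against 13.9% of all tested genes). It fell to 6 without shCtrl replicate 2 (11.1%, against 16.6%) and to 8 without shPRSS22 replicate 3 (14.8%, against 17.5%). In these settings the share of Rab genes higher was below that of all tested genes.

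The proteins that act on Rabs changed in both directions and some of them further than the Rabs. Of 55 tested GEF genes 13 rose and 9 fell, of 38 GAP genes 11 rose and 6 fell, of 8 GDI and prenylation genes 3 rose and 2 fell, and of 75 effector and tether genes 21 rose and 14 fell. Over the 4 lists 27.3% of 176 tested genes were higher and 17.6% lower, against 19.9% and 19.3% of all tested genes, with a median log2 fold change of 0.026.

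Among GEF genes that passed, the largest rises were those of RMC1, a subunit of the RAB7 exchange factor complex (log2 fold change 0.34), GAPVD1, which acts on RAB5 (0.30), and the TRAPP core subunit TRAPPC3 (0.27). DENND2B, a DENN-domain exchange factor, had the largest fall among those that passed, to 4.99 ± 0.214 CPM in shPRSS22, against 7.51 ± 0.332 CPM in shCtrl (log2 fold change -0.59). Next among them were DENND6B (-0.42) and the RAB5 exchange factor RIN1 (-0.42). Over the subunits of TRAPP, which activates RAB1 and RAB11, together with golgins and USO1 that bind RAB1, 5 of 17 tested genes rose (29.4%) and 4 fell (23.5%), against 19.9% and 19.3% of all tested genes.

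Among GAP genes that passed, EVI5L (0.47), TBC1D22B (0.35) and TBC1D8B (0.30) rose most and TBCK (-0.53), TBC1D8 (-0.43) and TBC1D5 (-0.25), which acts on RAB7, fell most. RAB3GAP1, catalytic subunit of the complex that inactivates RAB3 and activates RAB18, rose by 0.23 on the log2 scale, while its partner RAB3GAP2 (-0.039) did not pass. RABGGTB, the catalytic subunit of the transferase that adds lipid anchors to Rabs, fell to 106.0 ± 3.54 CPM in shPRSS22, against 128.2 ± 5.65 CPM in shCtrl (log2 fold change -0.27, adjusted p = 1.69e-06). GDI2 also fell (-0.16), while CHM (0.16), the escort protein that presents Rabs to that transferase, RABAC1 (0.19) and the methyltransferase ICMT (0.13) rose.

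**Figure D4:**
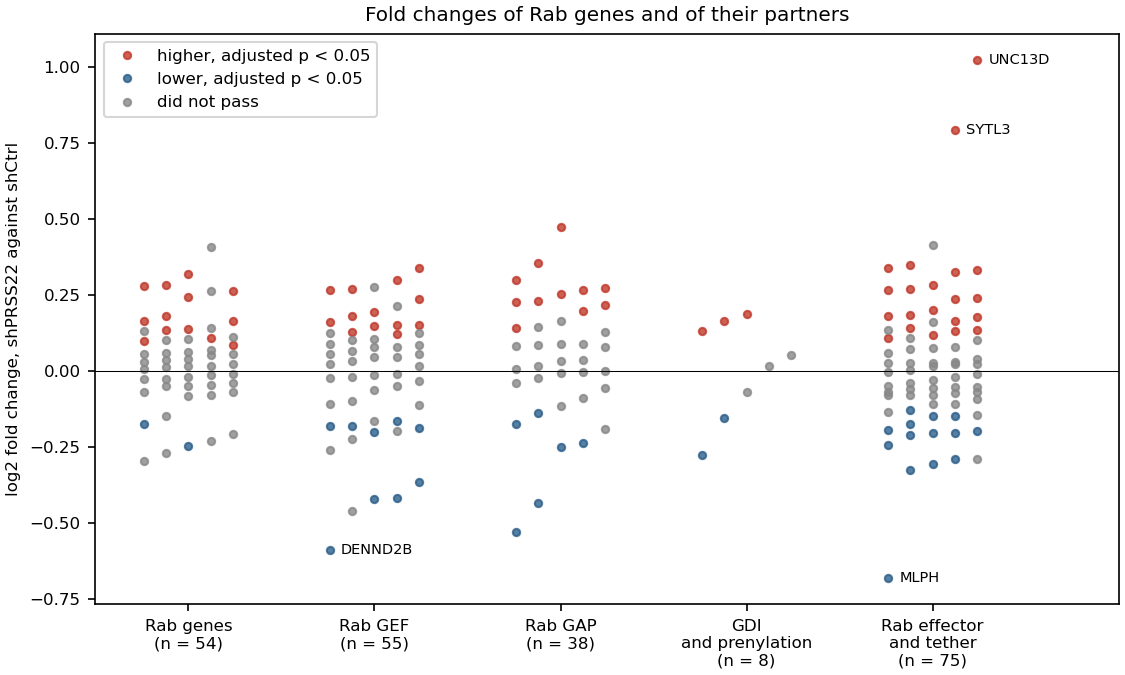
Log2 fold change, shPRSS22 against shCtrl, of the 54 Rab genes and of the tested genes of the 4 partner lists, 1 point a gene, red where higher and blue where lower at an adjusted p under 0.05. Rab genes that passed lie between -0.25 and 0.32, while UNC13D and MLPH among effectors reach 1.02 and -0.68.

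The largest changes among partners were in effectors of RAB27. UNC13D, which primes RAB27A-bearing granules for fusion, was at 15.8, 14.5 and 14.1 CPM in shPRSS22, against 8.15, 6.60 and 7.07 CPM in shCtrl (log2 fold change 1.02, SE 0.103, adjusted p = 1.57e-09). SYTL3, a synaptotagmin-like RAB27 effector, was at 78.0, 81.8 and 75.1 CPM in shPRSS22, against 45.0, 45.7 and 44.9 CPM in shCtrl (0.79, SE 0.0477, adjusted p = 9.45e-15). Both were higher in each knockdown library than in any control library. MLPH, melanophilin, which links RAB27A to the motor myosin Va, was at 88.5, 94.9 and 89.1 CPM in shPRSS22, against 149.6, 147.5 and 140.1 CPM in shCtrl (-0.68, SE 0.0397, adjusted p = 4.27e-15), without overlap.

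Of 10 tested RAB27 effectors 3 rose (30%) and 2 fell (20%), against 19.9% and 19.3% of all tested genes. Besides UNC13D, SYTL3 and MLPH, EXPH5 rose (0.18, adjusted p = 0.0454), with overlapping groups, and SYTL1 fell (-0.29, adjusted p = 7.72e-04). SYTL2 (0.16), SYTL4 (-0.15), SYTL5 (0.42), MYRIP (0.0047) and RPH3AL (-0.093) did not pass. MYO5A, the myosin Va heavy chain, rose by 0.33 on the log2 scale. The assignment of effectors to single Rabs was made after their values were seen.

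**Figure D5:**
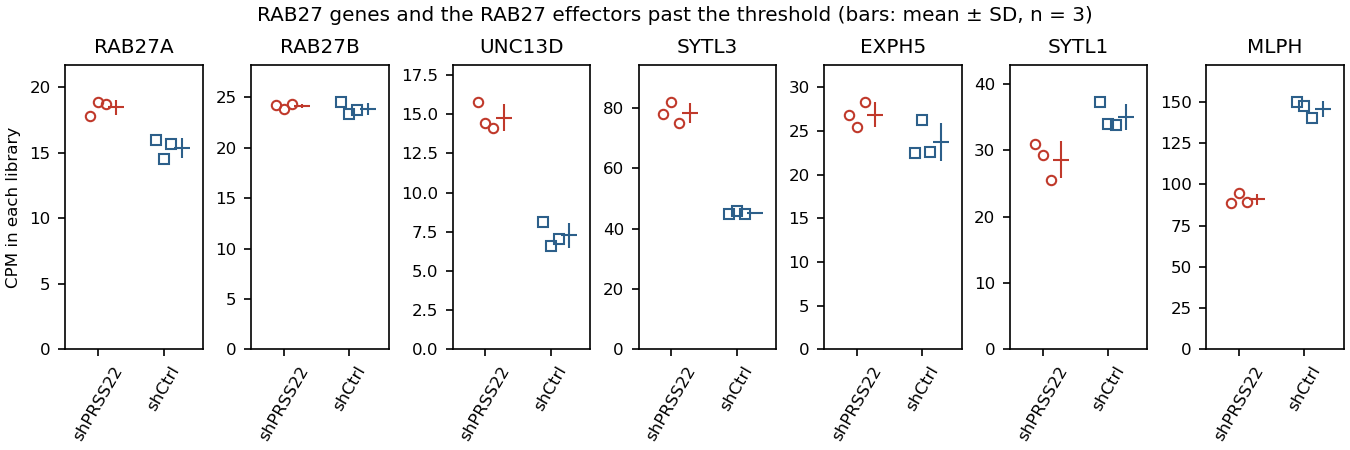
CPM of RAB27A, RAB27B and the 5 RAB27 effectors past the threshold in each library, with group mean and SD (n = 3), shPRSS22 (red circles) left of shCtrl (blue squares) and each axis starting at 0. UNC13D is about 2.03-fold higher and SYTL3 1.73-fold higher in shPRSS22, MLPH is lower, and the groups overlap for RAB27B.

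Partners of the other Rabs that changed also went both ways. PLIN3, a lipid droplet coat protein that also binds RAB9, rose to 229.2 ± 7.63 CPM in shPRSS22, against 180 ± 3.21 CPM in shCtrl (log2 fold change 0.35, adjusted p = 1.07e-09), while RABEPK (-0.04) and GCC2 (0.059), which also bind RAB9, did not pass. Among RAB5 partners RABEP1 (0.24) and GAPVD1 were higher, and RIN1, the lipid kinase subunit PIK3R4 (-0.19) and APPL2 (-0.15) were lower. Of all tested genes 19.9% rose and 19.3% fell. Of 15 exchange factor, effector and tether genes of RAB7, with its GAPs not counted, 3 rose (20%) and 5 fell (33.3%). Those that fell were the tether subunits VPS33A (-0.30), VPS11 (-0.24) and VPS18 (-0.17) and the effectors OSBPL1A (-0.33) and FYCO1 (-0.13), and those that rose were RMC1, CCZ1 (0.12) and CCZ1B (0.13). CCZ1 and CCZ1B are near-identical copies, so their separate counts are uncertain. Of 6 RAB11 partners RAB11FIP1 (0.16) and RAB11FIP5 (0.27) rose and RAB11FIP4 (-0.20) fell, which is 33.3% higher and 16.7% lower.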

How the data were processed

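Poly(A) RNA of HCT116 cells was sequenced in 3 shPRSS22 and 3 shCtrl libraries. The tools listed in the submitters' processing notes, with no role or order, are RSEM 1.3.1, Bowtie2 2.3.4.3, HISAT2 2.2.1, DESeq2 1.4.5, FastQC 0.12.1 and R 4.3.1, and the build is GRCh38.p13. Per the file headers, the deposited table holds estimated counts, FPKM, TPM and normalised counts (a scaled signal) per library, and the authors' log2 fold change, p-value and q-value per gene. FPKM and the scaled signal were not used. The deposited TPM values, which carry no depth of their own, served to compare levels between genes.

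Estimated counts, with decimals in 2081 to 2162 genes per library, were rounded. Genes were tested with edgeR 4.0.16 in R 4.3.3 by its quasi-likelihood method (TMM scaling, filterByExpr, robust dispersions) over 13104 genes, two-sided, with Benjamini-Hochberg adjustment over all of them and a threshold of 0.05. Every adjusted p not credited otherwise comes from it. CPM are per 1000000 of the TMM-scaled total; marker CPM use the unscaled total of all genes. SE is the fold change's size over the square root of F, and intervals are 95% on the fit's degrees of freedom. The fit was tested on simulated data. Replicate pairs differed by a chi-square of 1.80 to 1.85 per gene in shCtrl and 2.15 to 3.05 in shPRSS22, above sampling noise, and each library was counted once.

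Gene loci and exon overlaps come from GENCODE annotation of GRCh38, promoter windows from RefSeq (GRCh38.p14). The members and lists were chosen with earlier results of these data known. Values per library are given by rule for Rab genes past the threshold at a mean of at least 1 CPM, up to 8 a direction, and partners are named for up to 3 rises and 3 falls a list; other genes were named after their values were seen. Alternatives were DESeq2 (1.42.0), other scalings and filters, a replicate block and leaving out each library.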

Additional observations from a re-analysis of the deposited data

How the results depend on the processing

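No Rab gene or PRSS22 changed direction at a call under any setting tried, and of the 696 values of single Rab genes under the 13 planned settings 41 lost and 7 gained a call. With DESeq2 the counts were 6 Rab genes higher (11.8%, against 13.9% of all tested genes) and 1 lower (1.96%, against 12.9%). GEF genes higher went from 13 in the main fit to 6 with DESeq2, and those lower from 9 to 5. GDI or prenylation genes higher went from 3 to 1 and effector genes lower from 14 to 8. Of all tested genes 1637 were lower, against 2523 in the main fit. The other DESeq2 counts of the partner lists and their numbers tested are not given, so no direction can be read from these. The cause was not tested. Leaving out 1 library at a time gave 6 to 13 Rab genes higher and 1 to 3 lower: 9 and 1 without shCtrl replicate 1, 6 and 1 without shCtrl replicate 2, 12 and 2 without shCtrl replicate 3, 10 and 1 without shPRSS22 replicate 1, 13 and 3 without shPRSS22 replicate 2 and 8 and 1 without shPRSS22 replicate 3, with fewer samples in each fit. In these fits 11.1% to 24.1% of tested Rab genes were higher, against 16.4% to 18.8% of all tested genes. Lower were 1.85% to 5.56% of tested Rab genes, against 15.8% to 17.2% of all tested genes. RAB40C was called lower without shPRSS22 replicate 2 (log2 fold change -0.36, adjusted p = 0.0106). The deviations of same-numbered libraries were weakly correlated (0.019, 0.033 and 0.091), where other pairs ran from -0.115 to 0.084. Replicates 2 and 3 of shPRSS22 matched their own number best, while shPRSS22 replicate 1 matched shCtrl replicate 2 best (0.084). These values do not settle whether the numbers mark pairs, and the main fit did not take them as pairs. With the replicate number as a block 14 Rab genes were higher, RAB3B added (25.9%, against 21.2% of all tested genes). In that fit 2 were lower (3.70%, against 21.0%). The summed RAB43 and ISY1-RAB43 fit was chosen after seeing the data. Of the tested Rab genes 5 were under 2 CPM, where counts were few.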
